A study of Mus musculus with 4 samples.

Results

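The GIMAP genes encode GTPases of the immunity-associated protein family, which are made mainly in lymphocytes. The 8 mouse GIMAP protein genes described here (Gimap1, Gimap3, Gimap4, Gimap5, Gimap6, Gimap7, Gimap8 and Gimap9) were taken by gene symbol from a table of 27179 genes. No rule on measured values was used, but earlier results of these data were known when they were chosen. They were measured in regulatory T (Treg) cells, the CD4+Foxp3+ cells that restrain immune responses, from C57BL/6 animals kept at steady state, with spleen and peripheral lymph nodes as the source. There were 2 RNA sequencing libraries labelled WT and 2 labelled P65KO, the latter described as deficient in RelA (p65), a DNA-binding subunit of NF-kB. The sources used here do not give the deletion strategy, the age of the mice, or whether the libraries came from separate mice, so p-values measure only the spread between these 4 libraries.

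GIMAP proteins share a GTP-binding domain and sit on the membranes of organelles such as lysosomes, mitochondria and the endoplasmic reticulum, or in the cytosol. Membrane-anchored and soluble members can form mixed assemblies on a membrane surface. The family is known for keeping resting lymphocytes alive: mice that lack Gimap5 lose peripheral T cells and develop colitis, and mature T and B cells need Gimap1. All members lie in 1 cluster on chromosome 6, at 48647186 to 48770851 of GRCm38, a span of 124 kb.

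The family was highly expressed in all 4 libraries, and 2 of its 8 members were lower in P65KO Treg cells. Gimap7 fell 1.55-fold and Gimap5 fell 1.41-fold. Gimap1, Gimap3, Gimap4, Gimap6, Gimap8 and Gimap9 did not pass the test, and their estimates lay between 0.860 and 0.990 of the WT level. Over all 11172 genes tested, 20.7% passed (edgeR quasi-likelihood test with Benjamini-Hochberg adjustment over all of them, threshold 0.05), and 11.7% were lower in P65KO. Among the 2627 tested genes with a mean level at or above that of the lowest member, 25.0% passed in either direction. This was the same share as the 25.0% of GIMAP members. Of those 2627 genes, 374 rose and 282 fell, while the 2 GIMAP calls were both lower.

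The promoters of Gimap7 and Gimap5, the members that fell, and of Gimap1, the gene between them that did not pass, are shown so that the windows can be compared. Each runs from 250 bases before to 50 bases after the RefSeq start in GRCm38.p6, read 5′ to 3′ on the plus strand. The Gimap7 window is chr6:48718371-48718670, that of Gimap1 is chr6:48738797-48739096, and that of Gimap5 is chr6:48745947-48746246. Capitals mark TGTGGT, a core that RUNX factors bind, and GGAAGT, a core that ETS factors bind, each on either strand (ACCACA and ACTTCC on the opposite one). Both families of factors are active in T cells.
Gimap7: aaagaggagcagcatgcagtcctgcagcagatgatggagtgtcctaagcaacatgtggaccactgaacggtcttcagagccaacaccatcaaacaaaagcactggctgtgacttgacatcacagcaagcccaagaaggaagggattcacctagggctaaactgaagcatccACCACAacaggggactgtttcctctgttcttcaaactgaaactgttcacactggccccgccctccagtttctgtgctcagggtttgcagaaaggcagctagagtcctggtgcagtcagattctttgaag
Gimap1: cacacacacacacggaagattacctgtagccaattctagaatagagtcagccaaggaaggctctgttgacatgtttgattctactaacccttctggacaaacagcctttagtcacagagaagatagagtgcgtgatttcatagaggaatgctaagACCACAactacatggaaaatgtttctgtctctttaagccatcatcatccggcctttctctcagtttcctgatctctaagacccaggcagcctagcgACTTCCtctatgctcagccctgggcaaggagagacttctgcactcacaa
Gimap5: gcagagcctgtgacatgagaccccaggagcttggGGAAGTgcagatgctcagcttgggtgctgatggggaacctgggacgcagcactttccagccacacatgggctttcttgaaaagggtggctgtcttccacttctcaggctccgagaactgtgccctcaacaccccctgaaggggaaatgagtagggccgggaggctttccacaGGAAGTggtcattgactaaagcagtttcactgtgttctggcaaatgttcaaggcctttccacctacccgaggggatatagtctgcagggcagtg

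The Gimap7 window held 1 match to the RUNX letters, the Gimap1 window 1 match to each motif, and the Gimap5 window 2 matches to the ETS letters. Over the 9 windows of the family (Gimap8 has 2 listed starts), TGTGGT was found in 3 and GGAAGT in 4, beside 12.9% and 30.1% of the 10986 windows of tested genes. The consensus of a kappaB site, the DNA element of NF-kB, was found in 0 of the 9 windows on either strand and in 5.18% of windows of tested genes. A looser frame, GGG followed by any 5 bases and CC on either strand, which includes every match to that consensus, was found in 5 windows (those of Gimap4, Gimap7, Gimap9 and both of Gimap8) and in 67.0% of windows of tested genes. The 2 windows of Gimap8 overlap, and their matches to this frame are the same stretches of DNA. TGTTTAC, a core of FOXO sites, was found in the window of Gimap3 alone among the 9 (2.63% of windows of tested genes), CTTTGA, part of TCF and LEF sites, in those of Gimap4 and Gimap7 (11.7%), and CCACCC, a core of KLF sites, in 5 (36.3%). These matches describe the letters of the windows only, not sites in use.

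Before the members, the libraries were checked. Totals ran from 4513863 to 4624230 counts. The chi-square of replicate counts over genes, divided by its degrees of freedom, was 3.49 for WT and 3.97 for P65KO, above the 1 of pure counting noise. Rela was counted 875 and 806 times in WT and 820 and 909 times in P65KO. A gene-level count does not show which exons were read, and the deletion strategy is not given, so this value does not check the genotype label. Xist, which silences an X chromosome in female cells, was at 1102 counts over both WT libraries and 2 over both P65KO libraries, and the Y-linked gene Ddx3y had 0 counts in both WT libraries and 66.6 and 89.5 CPM (counts relative to library size, corrected for composition by TMM) in P65KO, so the genotype label and the sex of the mice cannot be told apart. Of the Treg and T cell markers, Cd4, Cd3e and Foxp3 did not pass the test, at 0.908, 0.853 and 1.22 of the WT level, while Ctla4 and Ikzf2 fell and Il2ra rose. The summed level of 12 myeloid and dendritic markers was 206 and 287 CPM in the WT libraries and 1088 and 412 CPM in the P65KO libraries, and 7 of the 9 tested rose. That of 7 erythroid and platelet markers was 16.1 and 21.9 CPM in WT and 78.1 and 136 CPM in P65KO, with Pf4 at 0 counts throughout. The 8 B cell markers summed to 39.7 and 46.0 CPM in WT and 19.4 and 15.1 CPM in P65KO, most of it Cd79b, with Ebf1 and Pax5 at 0 counts in every library. The 8 endothelial and stromal markers summed to 176 and 141 CPM in WT and 225 and 248 CPM in P65KO, almost all of it Pecam1, which T cells also express and which rose (log2 0.59; adjusted p from edgeR = 0.00277), while Tek, Col3a1, Pdpn and Lyve1 were at 0. The part of these differences in the GIMAP values was not tested. In bulk libraries, fewer cells of a type and less RNA per cell cannot be told apart.

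The level of each gene per length, in RPKM (CPM per kilobase of gene), spanned about an order of magnitude. Gimap3, Gimap4 and Gimap6 led in WT cells at 586 ± 78.3, 572 ± 39.2 and 519 ± 33.6 RPKM (SD, n = 2). Gimap3 and Gimap4 did not differ beyond their spread, and the lower library of Gimap4 (544 RPKM) met the higher of Gimap6 (543 RPKM). Gimap1 followed at 235 ± 30.9 RPKM and Gimap7 at 203 ± 4.79 RPKM, a difference about as large as the spread of Gimap1. Gimap9 stood at 116 ± 7.81 RPKM, Gimap8 at 64.0 ± 3.94 RPKM and Gimap5 at 52.1 ± 1.42 RPKM, each step beyond the spread. In P65KO cells the order was the same, with Gimap3 at 534 ± 13.1, Gimap4 at 525 ± 1.18, Gimap6 at 451 ± 5.77, Gimap1 at 202 ± 13.5, Gimap7 at 131 ± 17.1, Gimap9 at 109 ± 3.03, Gimap8 at 63.3 ± 1.07 and Gimap5 at 36.8 ± 0.376 RPKM (SD, n = 2).

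**Figure D1:**
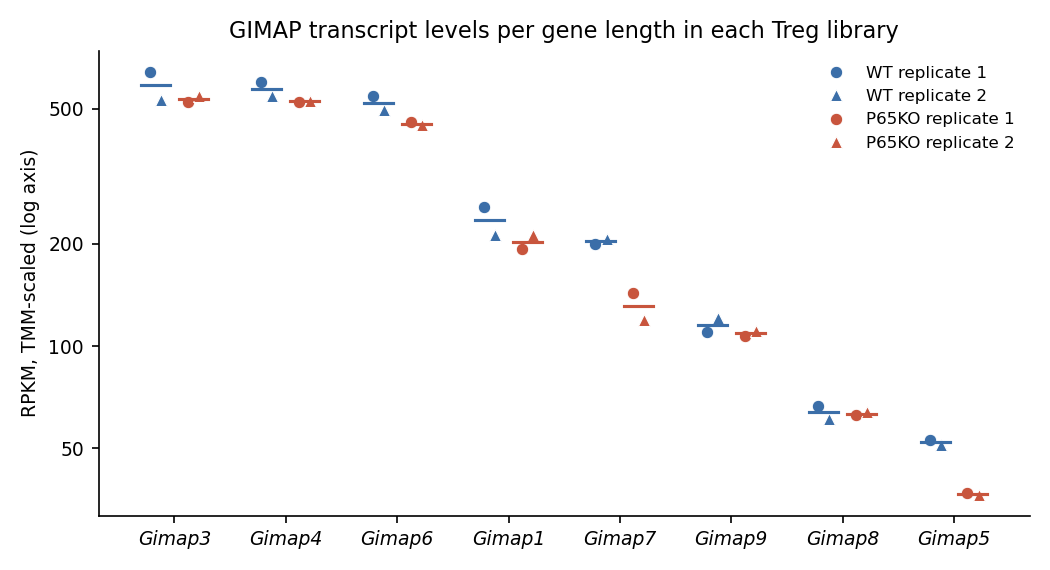
Level per gene length (RPKM, TMM-scaled, log axis) of each GIMAP gene, with circles for replicate 1, triangles for replicate 2 and a line at the mean of each group (blue WT, red P65KO). The levels span 52.1 to 586 RPKM among WT means, and the groups stand clearly apart for Gimap7 and Gimap5.

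Gimap7 encodes a soluble member whose GTPase activity is stimulated when its GTP-binding domains pair. Its counts were 1170 and 1220 in WT and 824 and 682 in P65KO, or 254 and 263 CPM against 182 and 151 CPM. Both P65KO libraries lay below both WT libraries, and the distance between the groups was larger than that between replicates. The log2 fold change was -0.63 (SE 0.10, 95% interval -0.86 to -0.41; adjusted p from edgeR = 0.000857). The lower of the P65KO libraries was replicate 2. That library held fewer myeloid transcripts (412 CPM in sum) than replicate 1 (1088 CPM), and more erythroid and platelet transcripts (136 against 78.1 CPM). The part of either in the Gimap7 values was not tested. The call ended narrowly without WT replicate 2 (log2 -0.61; adjusted p = 0.0536, same edgeR test) and with no filter on low counts (0.0507).

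Gimap5, the membrane-anchored member whose loss in mice and rats leads to lymphopenia, was the lowest of the family. Its counts were 475 and 461 in WT against 327 and 321 in P65KO, or 103 and 99.2 CPM against 72.1 and 71.1 CPM. The replicates of each group were close and the groups did not overlap. The log2 fold change was -0.50 (SE 0.10, 95% interval -0.71 to -0.28; adjusted p from edgeR = 0.00331). Without WT replicate 1 it was -0.47, short of the threshold (adjusted p = 0.0609, same edgeR test), while the other 9 settings tried kept the call, DESeq2 and limma-voom among them.

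Gimap3 is the closest relative of Gimap5 in the mouse genome and has been linked to the sorting of mitochondrial DNA variants in mouse blood cells. Its counts of 6338 and 5289 in WT and 5100 and 5259 in P65KO corresponded to 1376 and 1138 CPM against 1125 and 1165 CPM. The groups overlapped, since WT replicate 2 lay between the P65KO libraries, and the log2 fold change was -0.13 (SE 0.10, 95% interval -0.36 to 0.09; adjusted p from edgeR = 0.406). Without WT replicate 1, the highest library, the estimate changed sign to 0.0077. Of the distinct stretches of 50 bases in GENCODE transcripts, 4.53% of those of Gimap5 also occur in Gimap3 and 7.52% of those of Gimap3 in Gimap5, so reads from these stretches cannot be assigned with certainty. With both genes summed into 1 feature, which is mostly Gimap3, the log2 fold change was -0.16 (adjusted p from edgeR = 0.310).

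Gimap1, also membrane-anchored and needed by mature lymphocytes, had 386 and 321 CPM in WT and 290 and 318 CPM in P65KO libraries. WT replicate 2 and P65KO replicate 2 were nearly level, although the groups did not overlap. The log2 fold change was -0.22 (SE 0.11, 95% interval -0.45 to 0.01; adjusted p from edgeR = 0.178), and without WT replicate 1 it was -0.08. The noncoding transcript Gimap1os, which runs on the opposite strand and covers 36.0% of the exonic bases of Gimap1 in GENCODE, was counted 322 and 298 times in WT and 261 and 245 times in P65KO (log2 -0.26; adjusted p from edgeR = 0.115). The strand setting of the counting is not given in the sources used here, so reads of this pair may not be told apart.

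Gimap6 binds the autophagy protein GABARAPL2 and takes part in autophagy in lymphocytes. It had 876 and 799 CPM in WT and 734 and 721 CPM in P65KO, so both P65KO libraries lay below both WT libraries. The log2 fold change of -0.20 (SE 0.09, 95% interval -0.40 to -0.01) had an unadjusted p of 0.0446 and did not pass after adjustment (adjusted p from edgeR = 0.141). Gimap4, a cytosolic member that hastens the execution of T cell death in mice, had 1086 and 986 CPM in WT and 948 and 951 CPM in P65KO. Its groups did not overlap either (log2 -0.13, SE 0.09, 95% interval -0.32 to 0.07; adjusted p from edgeR = 0.379). For Gimap6 as for Gimap4, the gap between the groups was smaller than the distance between the WT replicates.

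The remaining members showed the smallest differences of the family. Gimap8, a large member with several GTP-binding domains in its chain, had 247 and 226 CPM in WT and 232 and 237 CPM in P65KO, with both P65KO values inside the WT range. Its log2 fold change of -0.014 had a 95% interval of -0.21 to 0.18, that is 0.864 to 1.14 of the WT level, and changed sign without WT replicate 1 and without P65KO replicate 1 (0.049 and 0.0072). Gimap9, a short soluble member, had 152 and 168 CPM in WT and 148 and 154 CPM in P65KO. Its groups overlapped, and its log2 fold change was -0.08 (95% interval -0.29 to 0.12; adjusted p from edgeR = 0.590).

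**Figure D2:**
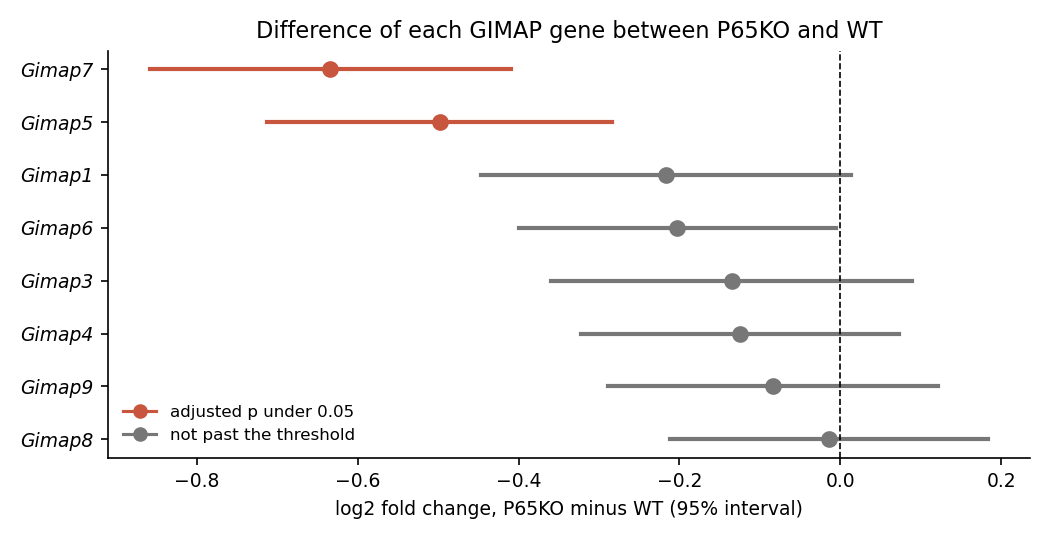
Log2 fold change (P65KO minus WT, horizontal axis) of each GIMAP gene with its unadjusted 95% interval, red where the adjusted p is under 0.05. Gimap7 at -0.63 and Gimap5 at -0.50 stand to the left of the other members, which lie between -0.22 and -0.014.

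As a family, the members made up 0.457% and 0.403% of all counts in the WT libraries and 0.368% in each of the P65KO libraries. Their summed level was 4480 and 3999 CPM in WT and 3730 and 3768 CPM in P65KO, 11.6% lower on average. The groups did not overlap, but the gap between the nearest libraries was smaller than the distance between the WT replicates, and 2 libraries a group cannot go below p = 0.333 in an exact permutation test, the value reached here. All 8 log2 fold changes were below 0, with a median of -0.17 beside 0.002 over all genes tested, of which 49.8% were below 0. Among tested genes at or above the lowest member in mean level, 40.5% were below 0 and the median was 0.052. Without WT replicate 1, 6 of the 8 members were below 0 and their median was -0.11, and without P65KO replicate 1, 7 of 8 were. Both P65KO libraries lay below both WT libraries for 5 members, beside 30.9% of all genes tested.

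Within the family, Gimap7 made up 5.67% and 6.56% of the GIMAP counts in WT and 4.87% and 4.01% in P65KO. The share of Gimap5 was 2.30% and 2.48% against 1.93% and 1.89%, and that of Gimap8 was 5.51% and 5.66% against 6.21% and 6.29%. These 3 shares did not overlap between the groups, and neither did that of Gimap4 (24.2% and 24.6% against 25.4% and 25.2%), each at the smallest exact permutation p of 0.333 that the design allows. The shares of Gimap1, Gimap3, Gimap6 and Gimap9 overlapped. On the log2 scale, the 95% interval of Gimap7 (-0.86 to -0.41) overlapped those of Gimap1 and Gimap5. It did not overlap those of Gimap3, Gimap4, Gimap8 (-0.21 to 0.18) and Gimap9, nor, by a small margin, that of Gimap6. The interval of Gimap5 overlapped those of Gimap1, Gimap3, Gimap4 and Gimap6, and of Gimap9 by a small margin, but not that of Gimap8. No model of the difference between members was fitted.

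Along the chromosome, the genes run in the order Gimap8, Gimap9, Gimap4, Gimap6, Gimap7, Gimap1, Gimap5 and Gimap3, with Gimap6 and Gimap3 on the minus strand and the others on the plus strand. Gimap7 (Entrez 231932; 48718621 to 48724636) and Gimap5 (Entrez 317757; 48746197 to 48754200) therefore stand on either side of Gimap1 (Entrez 16205; 48739047 to 48743795). GENCODE also lists Gm28053, a protein-coding gene that runs from Gimap7 into Gimap5 on the same strand. It shares 3.48% of the exonic bases of Gimap7, 6.44% of those of Gimap1 and 3.69% of those of Gimap5. It was not analysed here as a gene of its own.

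Of 22 other genes of the table that start within 500 kb of the cluster, 13 were tested and 5 passed, in both directions. Over all genes tested, 20.7% passed. On the side of Gimap8, Repin1, a zinc finger gene, fell from 7.38 and 9.25 CPM to 2.65 and 1.99 CPM, or 3.55-fold, and the transcribed pseudogene Zfp862-ps fell 1.83-fold. Sspo had 28 counts over both WT libraries and 2 over both P65KO libraries, a ratio of 14.1 (exact 95% counting interval 3.57 to 123). It passed the filter on low counts only through the WT libraries, the group where it was higher. The calls of Repin1 and Sspo ended without either WT library, that of Sspo also with DESeq2, and that of Zfp862-ps without WT replicate 1. On the side of Gimap3, Tmem176a and Tmem176b, a pair of membrane protein genes expressed in dendritic and some T cells, rose 3.79-fold and 3.81-fold. Tmem176b had 12.2 and 11.6 CPM in WT and 62.0 and 28.8 CPM in P65KO, highest in the library that also held the most myeloid transcripts, and its call ended with no filter and without either WT library. The part of myeloid RNA in that result was not tested. AI854703, the tested gene nearest to Gimap8, had 6.08 and 6.67 CPM in WT and 6.62 and 5.54 CPM in P65KO.

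**Figure D3:**
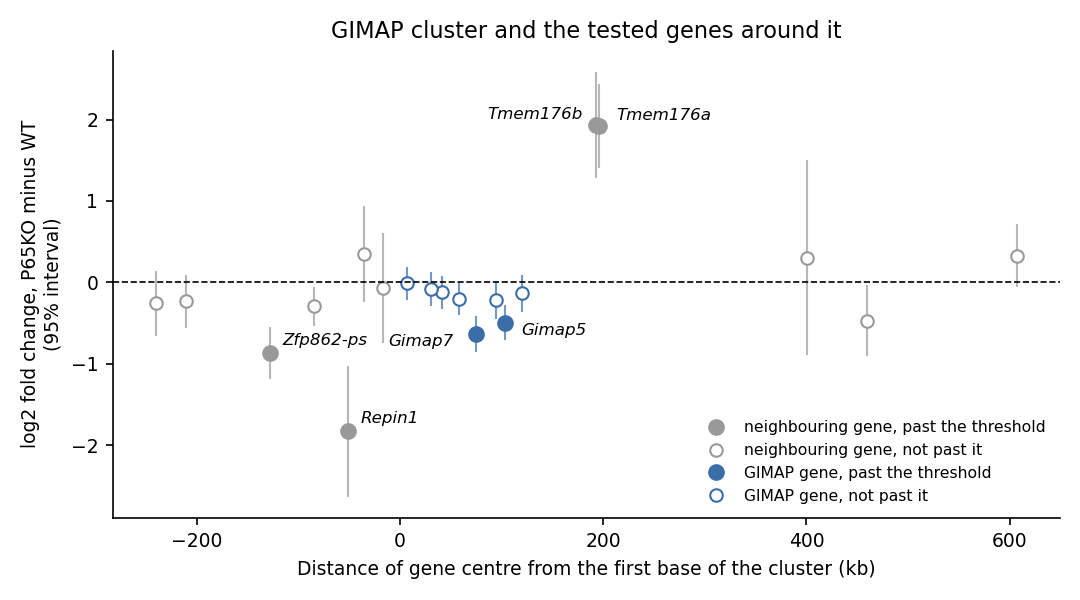
Log2 fold change (P65KO minus WT, with unadjusted 95% interval) of the 8 GIMAP genes (blue) and of tested neighbouring genes (grey; Sspo, given as a ratio of counts, is not drawn) against distance in kb from the first base of the cluster. Filled points passed the threshold: Gimap7 and Gimap5 within the cluster, Zfp862-ps and Repin1 below 0 on one side and Tmem176a and Tmem176b above 0 on the other.

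Most other genes of lymphocyte survival did not pass. Of 16 genes of the IL-7 receptor pathway and the BCL2 family, 3 fell, 1 rose and 12 did not pass, or 25.0% called beside 20.7% of all genes tested, with a median log2 fold change of -0.10. Il7r, the receptor chain for the survival cytokine interleukin-7, fell 1.89-fold, from 184 and 200 CPM in WT to 106 and 97.9 CPM in P65KO. Jak3, the kinase that signals from the shared cytokine receptor chain, fell 1.77-fold, and Bcl2l1, which encodes the survival protein BCL-XL, fell 1.55-fold. Bcl2, the survival gene that IL-7 signalling is known to maintain, rose 1.87-fold, from 126 and 135 CPM to 239 and 250 CPM. The calls of Il7r, Jak3 and Bcl2 held under all 10 settings tried, and that of Bcl2l1 ended without either WT library (adjusted p from edgeR of 0.054 and 0.0564).

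Most genes of autophagy and of known GIMAP partners did not pass. Of 15, 1 fell, 1 rose and 13 did not pass, or 13.3% called beside 20.7% of all genes tested. The median log2 fold change was -0.020. Gabarapl2, the partner of Gimap6, was at 0.984 of the WT level (95% interval 0.822 to 1.18), and Gsk3b, the kinase linked to Gimap5 in T cells, at 1.09 (0.928 to 1.28). Ulk1, which starts autophagy, fell 1.41-fold and Atg3, an enzyme of the conjugation step, rose 1.27-fold. Both calls ended in at least 5 of the 10 settings, DESeq2 among them (adjusted p of 0.173 for Ulk1 and 0.279 for Atg3).

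The listed genes of quiescence and lymph node homing, traits of resting lymphocytes, were mostly higher in P65KO. Of 18, 13 rose, 0 fell and 5 did not pass, with a median of 0.57. The called share was 72.2%, beside 20.7% of all genes tested. The list was chosen with earlier results of these data known, so its count cannot serve as a test of these traits. With no filter on low counts, 9 of the 18 rose. Igfbp4 rose 3.43-fold, Satb1 2.52-fold and Ccr7 1.89-fold. Klf2, a transcription factor that maintains homing receptors, rose 1.71-fold, and Foxo1, which maintains Klf2 and Il7r, rose 1.35-fold. The Foxo1 call was lost in 4 of the 10 settings, namely no filter and the removal of either WT library or of P65KO replicate 2 (adjusted p from edgeR of 0.0559 to 0.179).

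Of another family of immune GTPases, those induced by interferon, 13 of 15 were tested, 5 fell, 0 rose and 8 did not pass, with a median of -0.22. The called share was 38.5%, beside 20.7% of all genes tested (11.7% lower in P65KO). This list, too, was chosen with earlier results of these data known. Gbp3, Gbp6, Gbp5 and Gbp7, which encode guanylate-binding proteins, fell 1.39-fold, 1.39-fold, 1.36-fold and 1.34-fold, and Irgm1, named after its value was seen, fell 1.24-fold. With DESeq2, 1 of these calls remained, that of Gbp6, and with no filter 0 genes of the list passed (adjusted p from edgeR of 0.0507 for Gbp6). Leaving out any 1 library left fewer genes of the list called. Without P65KO replicate 1 they included Irgm2, which did not pass in the main setting. The call of Irgm1 was also lost with the replicate block (adjusted p from edgeR of 0.0619).

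The mean profile of the 8 members over the 4 libraries, in log2 CPM around its own mean, was 0.17 and 0.07 in WT and -0.12 in both P65KO libraries. Among 8760 tested genes with a mean of at least 10 CPM, those nearest to it by Euclidean distance were Xrcc5, Ctnna1, Sugp1, Fam199x, Hus1 and Zfp764, at distances of 0.0153 to 0.0281. None of these 6 passed the test, and 220 genes lay within a distance of 0.1. Gimap6 was the member nearest to the mean profile, at 0.0443, and Gimap7 the farthest, at 0.454.

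**Figure D4:**
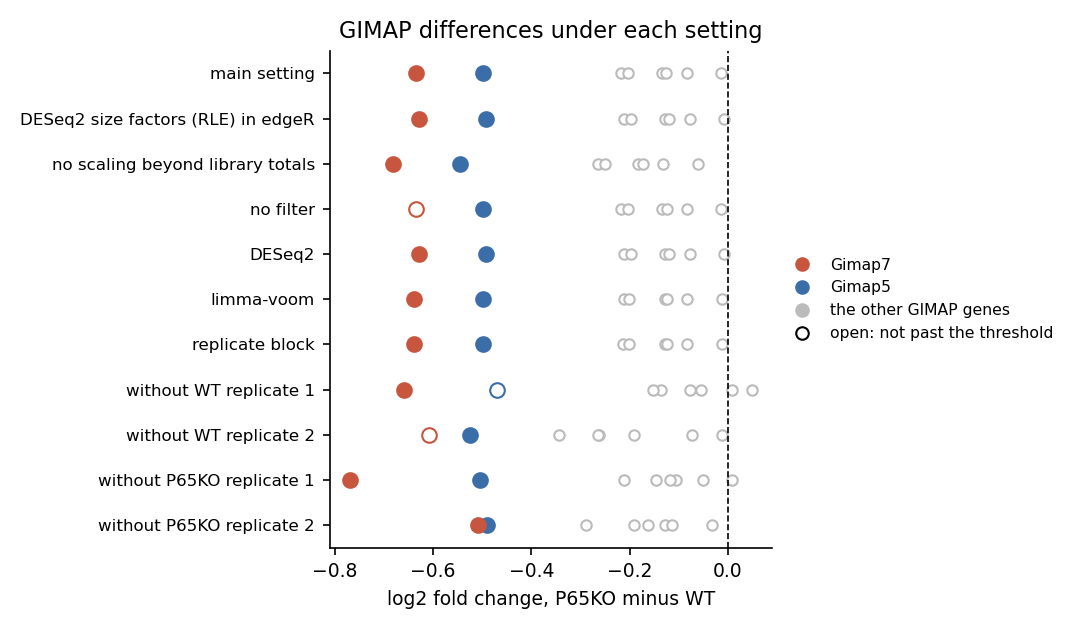
Log2 fold change (P65KO minus WT, horizontal axis) of every GIMAP gene in the main setting and under 10 other settings, with filled points past the threshold of 0.05. Gimap7 (red) and Gimap5 (blue) stayed below 0 in each, with open points (threshold not passed) for Gimap7 with no filter and without WT replicate 2 and for Gimap5 without WT replicate 1, while the other members (grey) did not pass in any of those drawn.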

How the data were processed

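Counts per Entrez gene and log2 RPKM values were deposited by the authors for each library. The tools listed in the submitters' processing notes are featureCounts, Subread and limma, with the builds GRCm38 and mm10; the sources used here name no version, annotation or strand setting. Libraries were made with the TruSeq RNA kit, per the labels' protocols, and held 4513863 to 4624230 counts. The deposited log2 RPKM values gave whole-number gene lengths within 0.01 for 27178 of 27179 genes, and tests were run on the counts. Low-count genes were dropped by filterByExpr, libraries were scaled by TMM, and groups were compared with the two-sided quasi-likelihood F test of edgeR 4.0.16 (R 4.3.3), adjusted by Benjamini-Hochberg over 11172 genes. DESeq2 1.42.0 and limma 3.58.1 (voom) were alternatives. SE is the log2 fold change divided by the square root of F. The script was checked on simulated counts. All 8 members passed the filter and matched RefSeq coordinates. The members and lists were chosen with earlier results of these data known, and genes named beside the members were up to 4 called genes with the largest change in each list, a few fixed partner and survival genes, called neighbours within 500 kb and the 6 nearest profiles. Some genes that this rule or the marker lists name are not reported here. The kappaB consensus was searched after the other motifs had been counted. Intervals on ratios of counts cover counting error only.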

Additional observations from a re-analysis of the deposited data

How the results depend on the processing

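The 2 GIMAP calls were unchanged in number with DESeq2 size factors, no scaling, DESeq2, limma-voom and the replicate block, and 1 remained with no filter on low counts (Gimap5). Leaving out 1 library gave 1 to 2 calls. The log2 fold change of Gimap3 then ran from -0.26 to 0.0077 and that of Gimap8 from -0.074 to 0.049, with signs that changed as given above. No other member changed sign under any setting. The number of genes changed, 2310, was 771 with no filter, 1318 with DESeq2 and 743 to 1633 with 1 library left out. Listed genes called, 24, were 13 with no filter and 12 to 20 with 1 library left out. Where a group was left with 1 library, that library was assumed to vary like the other group. The shared replicate numbers are not stated to pair libraries, and the deviations of same-numbered libraries correlated at -0.142. With the replicate block, 2319 genes, 2 members and 22 listed genes were called, and with the numbers crossed, chosen after seeing the data, 2973, 3 and 27, the added member being Gimap1. The SE of a member's log2 fold change was 0.09 to 0.11, which limits the differences that can be told from 0.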
